A study of Mus musculus with 1 sample.

Results

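DEAD- and DEAH-box RNA helicases were taken as every probe whose symbol in the platform's annotation is Ddx or Dhx followed by a number and at most 1 letter, with Ddx3y left out of the rule. It found 52 probes of 49 genes, out of 20690 named probes of 19321 genes. Of the 49 genes, 33 carry a Ddx symbol and 16 a Dhx symbol. The rule used names and no measured value. The study looked for genes that RAW264.7 cells, a macrophage-like mouse line, need to take up peroxiredoxin, by setting parental cells against lines made with the mutagen ENU and selected for loss of that uptake. Here 1 one-colour Cy5 array was analysed, from parental cells grown in RPMI medium with fetal calf serum, and mutant lines were not analysed here. Hence no line is compared with another, no value has a replicate, and no p-value is given. The line stems from a tumour induced by Abelson leukaemia virus, and all 12 macrophage markers checked were over both limits described below, among them Spi1 at 858 and Csf1r at 642.

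RNA helicases of these families use ATP to open short duplexes or to strip proteins from RNA, and are named after the one-letter code of a sequence in their ATP-binding core. Most DEAD-box members pry apart short stretches locally and are set to a target by partner proteins, whereas many DEAH-box members travel along a strand and are switched on by partners with a G-patch domain. Together they serve ribosome assembly, splicing, export, translation and decay of mRNA, and some detect viral RNA in macrophages.

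Signals are medians of spot pixels in the red channel, in arbitrary units, with no local background subtracted. Each was set against a pair of limits. The blank limit, 22.98, is the mean of the empty spots plus 2 SD, taken without the lowest and highest 5% of them. The receptor limit, 55.8, was exceeded by the top 5% of 1221 probes for olfactory, vomeronasal and taste receptors, genes with little known use in a macrophage line. A gene takes its highest probe. Signal depends on the probe as well as on the transcript, so the genes are placed against the limits and not ranked against each other, and a low reading may be that of a poor probe.

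Of the 49 helicase genes, 47 passed the blank limit, or 95.9%, against 72.8% of all named genes. The receptor limit was passed by 41 helicase genes, or 83.7%, against 42.7% of all named genes. The exact Clopper-Pearson 95% intervals of the helicase shares, which treat genes as draws and cover the counting of genes only, were 86.0 to 99.5 and 70.3 to 92.7. Between the limits lay 6 genes, namely Ddx19b, Ddx23, Ddx25, Dhx30, Dhx37 and Dhx38. Ddx60 and Dhx57 were not over the blank limit. The median over helicase genes was 222, against 40.1 over all named genes, and helicase signals ran from 21.8 to 1648 while the brightest named gene on the array read 50569. By symbol, 29 of 33 Ddx genes and 12 of 16 Dhx genes passed the receptor limit.

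The excess of helicases over other genes held at moderate signals and not at the highest. A signal of 100 was exceeded by 32 of 49 helicase genes, or 65.3%, against 33.0% of the 19272 other named genes. At 200 the shares were 55.1% of helicase genes and 22.7% of other genes, and at 500 they were 24.5% and 12.1% in that order. At 1000 the helicase share was no longer the higher one, with 3 helicase genes, or 6.12%, against 6.64% of other genes.

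**Figure D1:**
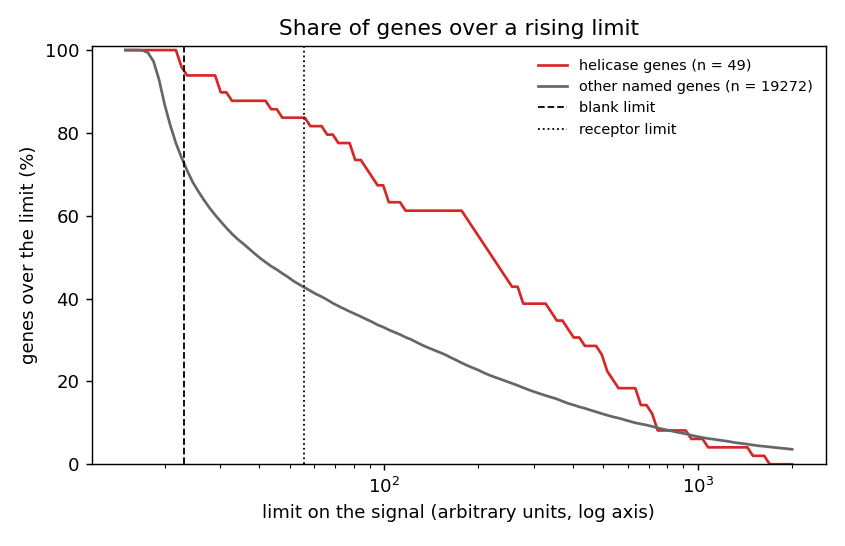
Percentage of genes (vertical axis) whose highest probe exceeds the limit on the horizontal log axis, for 49 helicase genes in red and 19272 other named genes in grey, with the blank limit dashed and the receptor limit dotted. The red curve lies over the grey one at both limits, and the curves run close together from about 746 to 1000, where 6.12% of helicase genes and 6.64% of other genes remain.

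The start-site regions of members on which the account turns are shown before the values of single genes, from RefSeq on mouse build GRCm38.p6. Each window holds 250 bases before the annotated start and 50 after it. Windows were found for 43 of the 49 genes. Ddx6, Ddx11, Ddx23, Ddx39a, Dhx38 and the virus sensing gene Dhx58 had none, so they were not searched for any motif. The first pair belongs to genes of virus sensing that interferon is known to induce, and capitals mark matches on either strand to GAAA, any 2 bases and GAAA again, the letters of an interferon response element. Ddx58 comes from chr4:40239776-40240075 on the minus strand, with 1 match at bases 253 to 262. Ddx60 comes from chr8:61927837-61928136 on the plus strand, with 2 matches at bases 198 to 207 and 232 to 241.
Ddx58: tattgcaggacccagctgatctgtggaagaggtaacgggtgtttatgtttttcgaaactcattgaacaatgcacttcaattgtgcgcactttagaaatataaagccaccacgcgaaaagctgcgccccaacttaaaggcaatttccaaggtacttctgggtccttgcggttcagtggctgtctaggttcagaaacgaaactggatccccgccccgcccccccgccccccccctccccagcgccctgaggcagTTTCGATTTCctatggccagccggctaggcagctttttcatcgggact
Ddx60: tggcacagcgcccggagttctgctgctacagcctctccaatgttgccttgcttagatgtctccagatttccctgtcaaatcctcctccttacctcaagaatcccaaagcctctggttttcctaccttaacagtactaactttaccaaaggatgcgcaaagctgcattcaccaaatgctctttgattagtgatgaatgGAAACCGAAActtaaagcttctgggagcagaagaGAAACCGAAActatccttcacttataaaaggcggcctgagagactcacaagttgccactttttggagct

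This pattern occurred in windows of 3 of 43 helicase genes, or 6.98%, the third being Ddx49, against 3.93% of the 15113 named genes with a window. It stood in 3.44% of all 32851 windows in the table. A looser form, in which the last base may vary, was found for 8 helicase genes, or 18.6%, against 9.26% of named genes. Ddx58 read 80.6, over both limits, whereas the probes of Ddx60 read 22.2 and 20.3, under both. With the limit at the 99th percentile of the receptor probes Ddx58 was no longer over it. A match describes letters and is no proof of a site.

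The next window is that of the germ-line helicase Ddx4, from chr13:112652261-112652560 on the minus strand, shown because this gene read over both limits in a macrophage line. Capitals mark its 38 CpG pairs, the dinucleotide that DNA methylation acts on. The window of Ddx25, the other germ-line helicase measured, held 41, the most of any helicase window, although Ddx25 lay between the limits. The median over the 54 helicase windows was 24, against 15 over the 18605 windows of named genes on the array.
Ddx4: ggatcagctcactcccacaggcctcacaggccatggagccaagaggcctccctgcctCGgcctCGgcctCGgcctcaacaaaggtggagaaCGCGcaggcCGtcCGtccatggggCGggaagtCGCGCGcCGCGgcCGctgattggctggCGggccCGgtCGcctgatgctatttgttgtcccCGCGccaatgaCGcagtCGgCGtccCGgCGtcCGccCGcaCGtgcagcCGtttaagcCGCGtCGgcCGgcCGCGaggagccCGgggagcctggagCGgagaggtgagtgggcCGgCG

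The last is Dhx36, from chr3:62506939-62507238 on the minus strand, chosen because it held the most matches to CCGGAAG, the letters that many ETS factors bind. Capitals mark them at bases 204 to 210 and, on the other strand, 236 to 242.
Dhx36: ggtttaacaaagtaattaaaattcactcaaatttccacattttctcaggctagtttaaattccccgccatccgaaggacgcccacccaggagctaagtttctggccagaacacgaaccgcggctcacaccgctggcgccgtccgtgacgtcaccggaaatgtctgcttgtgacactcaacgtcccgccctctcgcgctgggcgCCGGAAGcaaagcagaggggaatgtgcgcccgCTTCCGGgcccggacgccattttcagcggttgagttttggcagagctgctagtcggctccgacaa

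At least 1 window with CCGGAAG was found for 18 of 43 helicase genes, or 41.9%, against 13.8% of the 15113 named genes with a window, and 8.86% of all windows held it. Of the 13 motifs searched on both strands, a set picked with the signals already known, the core of the cAMP response element, TGACG, was found for 24 helicase genes, or 55.8%, against 28.2% of named genes. CCAAT was found for 51.2% of helicase genes and 41.9% of named genes, and TATAAA for 13.95% and 13.8% in that order. Motifs that were less frequent in helicase windows include the SP1 letters GGGGCGGGG, found for 11.6% of helicase genes and 18.8% of named genes, and the ZNF143 motif, found for 0 helicase genes and 2.18% of named genes. The E-box letters CACGTG were in windows of 7 helicase genes, or 16.3%, against 9.65% of named genes. CpG content differs between these sets, and its part in the motif shares was not tested.

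Ribosome assembly was the role with the most members, and its helicases gave signal almost throughout. All 16 lay over the blank limit and 15 of them over the receptor limit too, against 72.8% and 42.7% of all named genes. Their median was 300.2. These enzymes reshape pre-ribosomal RNA in the nucleolus, and many roles are known from their yeast counterparts. Ddx21, a nucleolar helicase that also acts at RNA polymerase I and II genes, read 710, and its close paralog Ddx50 read 207. Transcripts of paralogs this alike may bind either probe, which was not checked here. Ddx18, the counterpart of yeast Has1 in both subunits, read 734, and Ddx47, the counterpart of yeast Rrp3 in the small subunit, read 726. Ddx10, the counterpart of yeast Dbp4, read 507.

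Other assembly factors of the large subunit were over both limits as well. Ddx24, the counterpart of yeast Mak5, read 476, and Ddx27, the counterpart of yeast Drs1, read 269. Ddx54, known in yeast as Dbp10, read 222, and Ddx56, known in yeast as Dbp9, read 331. Both were more than 3 times over the receptor limit. Ddx51, the counterpart of yeast Dbp6, read 103, or 1.84 times the receptor limit. Ddx31, the counterpart of yeast Dbp7, read 71.2, or 1.28 times that limit, and Ddx55, the counterpart of yeast Spb4, read 64.0, or 1.15 times. Ddx55 fell under the receptor limit once local background was subtracted.

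For the small subunit, Ddx52, the counterpart of yeast Rok1, read 349, and Ddx49, the counterpart of yeast Dbp8, read 199.9. Dhx33, a DEAH-box enzyme tied to ribosomal RNA synthesis and also described as an RNA sensor of the inflammasome, read 381. Dhx37, the counterpart of yeast Dhr1, which frees the U3 guide RNA from the small subunit, lay between the limits at 46.5. It was the assembly helicase under the receptor limit, at 0.833 times that value.

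Helicases of the spliceosome ranged from readings far over both limits to readings close to the blanks. All 9 measured were over the blank limit, and 7 of these were also over the receptor limit, against 72.8% and 42.7% of all named genes. The median was 400.2. In the order of the splicing cycle, Ddx46, the counterpart of yeast Prp5, which helps U2 settle on the branch site, read 520. Ddx42, a related protein bound to the U2 particle, read 546. Ddx23, the counterpart of yeast Prp28, which exchanges U1 for U6 at the 5′ splice site, read 23.3, or 1.02 times the blank limit. The value of Ddx23 in the authors' deposited table was 1. It fell under the limit after background correction, without trimming, with 3 SD and with a limit that 1% of the blanks exceed, so its call rests on the setting.

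The later steps are run by DEAH-box members. Dhx16, known in yeast as Prp2, which activates the complex for the first step, read 433. Dhx38, known in yeast as Prp16, which remodels it before the second step, lay between the limits at 30.0, and fell under the blank limit after background correction. Dhx8, known in yeast as Prp22, which releases the spliced mRNA, read 99.96, or 1.33 times its local background. It fell under the receptor limit once that background was subtracted. Dhx15, known in yeast as Prp43, which takes the spent complex apart and also works in ribosome assembly, read 1076. Dhx35, a member of the catalytic complex, read 94.8, and Ddx41, which is found in that complex and is also described as a sensor of DNA, read 400.2. Thus consecutive steps of one cycle had probes on opposite sides of the receptor limit. Whether the low readings of Ddx23 and Dhx38 are those of poor probes was not tested.

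Of 7 helicases of export, translation and decay, all lay over the blank limit, and 6 lay over the receptor limit as well, against 72.8% and 42.7% of all named genes. The median was 243. Ddx3x, an X-linked helicase that helps ribosomes start on structured mRNAs and has roles in innate signalling, was read by 2 probes. They gave 1648 and 1011, a ratio of 1.63, and both lay over both limits. Ddx39a, an mRNA export factor closely related to Ddx39b, read 948. Ddx19b, which releases proteins from mRNA at the nuclear pore, lay between the limits at 42.6, or 0.764 times the receptor limit. No probe carried the symbol of its near-identical paralog Ddx19a, nor that of Ddx39b.

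Ddx6, which holds mRNAs in a silent state and promotes decapping in P-bodies, read 274. Dhx36, which unwinds G-quadruplexes in RNA and DNA and whose start-site region is printed above, read 243. Dhx34, a factor of nonsense-mediated decay, read 116, and Dhx29, which helps the small ribosomal subunit scan structured leaders, read 90.01. Dhx29 was 1.61 times over the receptor limit and fell under it after local background was subtracted.

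All 5 helicases of transcription and RNA maturation passed both limits, which 72.8% and 42.7% of all named genes did. Their median was 639. Ddx5 and Ddx17, paralogs that act as transcription co-regulators and in the Microprocessor, the complex that cuts primary microRNAs, read 640 and 639. Their transcripts are alike, and binding of one to the other's probe was not checked. Dhx9, a helicase that resolves RNA pairing and links transcription factors to RNA polymerase II, read 495. Ddx1, a subunit of the tRNA ligase complex, read 1454. Ddx20, known as Gemin3 in the SMN complex that builds splicing particles, read 184. These values lay from 3.29 to 26.1 times over the receptor limit.

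The 3 helicases of virus sensing read at 0.968 to 3.51 times the blank limit, 2 of them over both limits and 1 under both. That is 66.7% over either limit, below the 72.8% of all named genes at the blank limit and over the 42.7% at the receptor limit, on 3 genes. Ddx58 encodes RIG-I, the sensor of viral RNA with a triphosphate end, and it read 80.6, or 1.44 times the receptor limit. Dhx58 encodes LGP2, a relative without signalling domains that tunes the other sensors, and it read 57.1, or 1.02 times that limit. After subtraction of local background Dhx58 fell under the receptor limit. Ddx60, an interferon-induced antiviral helicase, was read by 2 probes at 22.2 and 20.3, or 0.968 and 0.884 times the blank limit, and the authors' deposited table left both cells empty. Both probes of Ddx60 stayed under the limits of their own blocks, though the brighter passed with 1 SD in place of 2 and with the limit from the negative controls. The third member of the RIG-I family, Ifih1, which encodes MDA5, has a symbol outside the rule and lay between the limits at 50.05.

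The RIG-I pathway was measured through 9 of 11 listed genes, the sensor Ifih1 included. All 9 lay over the blank limit, against 72.8% of all named genes, and 7 over the receptor limit, against 42.7%. Of these, the mitochondrial adaptor Mavs read 151, the ubiquitin ligase Trim25 read 484 and the transcription factor Irf3 read 233. Irf7, a factor that interferon induces, was with Ifih1 one of the pair under the receptor limit and lay between the limits at 35.8. The antiviral protein Zc3hav1 read 104.9, and the kinases Tbk1 and Ikbke read 374 and 59.9, all over both limits.

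Mitochondrial helicases had 1 member on each side of the receptor limit. Ddx28, a factor of the mitochondrial ribosome's large subunit, read 251, and its local background was 204. Dhx30, which acts in mitochondrial RNA granules, lay between the limits at 32.0. Its probe has no transcript accession in the annotation.

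Of the germ-line helicases, Ddx4, the mouse Vasa protein of germ cells, read 190, or 3.41 times the receptor limit, on its 1 probe. Its value in the authors' deposited table was 83, and its spot was 6.95 times over the local background of 27.4. Ddx25, a helicase of round spermatids, lay between the limits at 29.3 and fell under the blank limit after background correction. Among 16 other germ cell markers, 10, or 62.5%, lay over the blank limit and 5, or 31.2%, over the receptor limit, against 72.8% and 42.7% of all named genes. These markers ran from 17.5 to 164 and fell on both sides of the limits. The piRNA factor Piwil4 read 164, Tdrd7 read 119.7, Nanos2 read 85.3, Tdrd9 read 62.2 and Nanos3 read 56.2, just over the receptor limit. Their local backgrounds were 111, 60.9, 50.6, 22.4 and 31.3 in that order. Dazl, a defining RNA-binding protein of germ cells, read 24.4, Mael read 22.2, the meiotic protein Sycp3 read 18.5 and the protamine Prm1 read 17.7. Ddx4 thus read over both limits, as did Piwil4, Tdrd7, Nanos2, Tdrd9 and Nanos3. Tdrd6, Mael, Mov10l1, Asz1, Sycp3 and Prm1 were not over the blank limit. Whether the Ddx4 probe bound another transcript was not tested.

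The remaining 5 genes have roles outside these groups. Ddx11, an iron-sulfur DNA helicase that helps sister chromatids cohere and is no RNA helicase by function, read 86.3, or 1.55 times the receptor limit, over a local background of 69.4. It fell under the receptor limit once that background was subtracted. Dhx32 read 231 and Dhx40 read 213, both over both limits, and less is known of what these proteins do. Ddx59, mutated in a human syndrome of mouth, face and digits, was read by 2 probes at 77.8 and 31.3, a ratio of 2.49. The brighter probe was over both limits and the dimmer, which has no transcript accession in the annotation, lay between them. Dhx57, a little studied helicase, read 21.8, or 0.95 times the blank limit, and its cell in the authors' deposited table was empty.

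**Figure D2:**
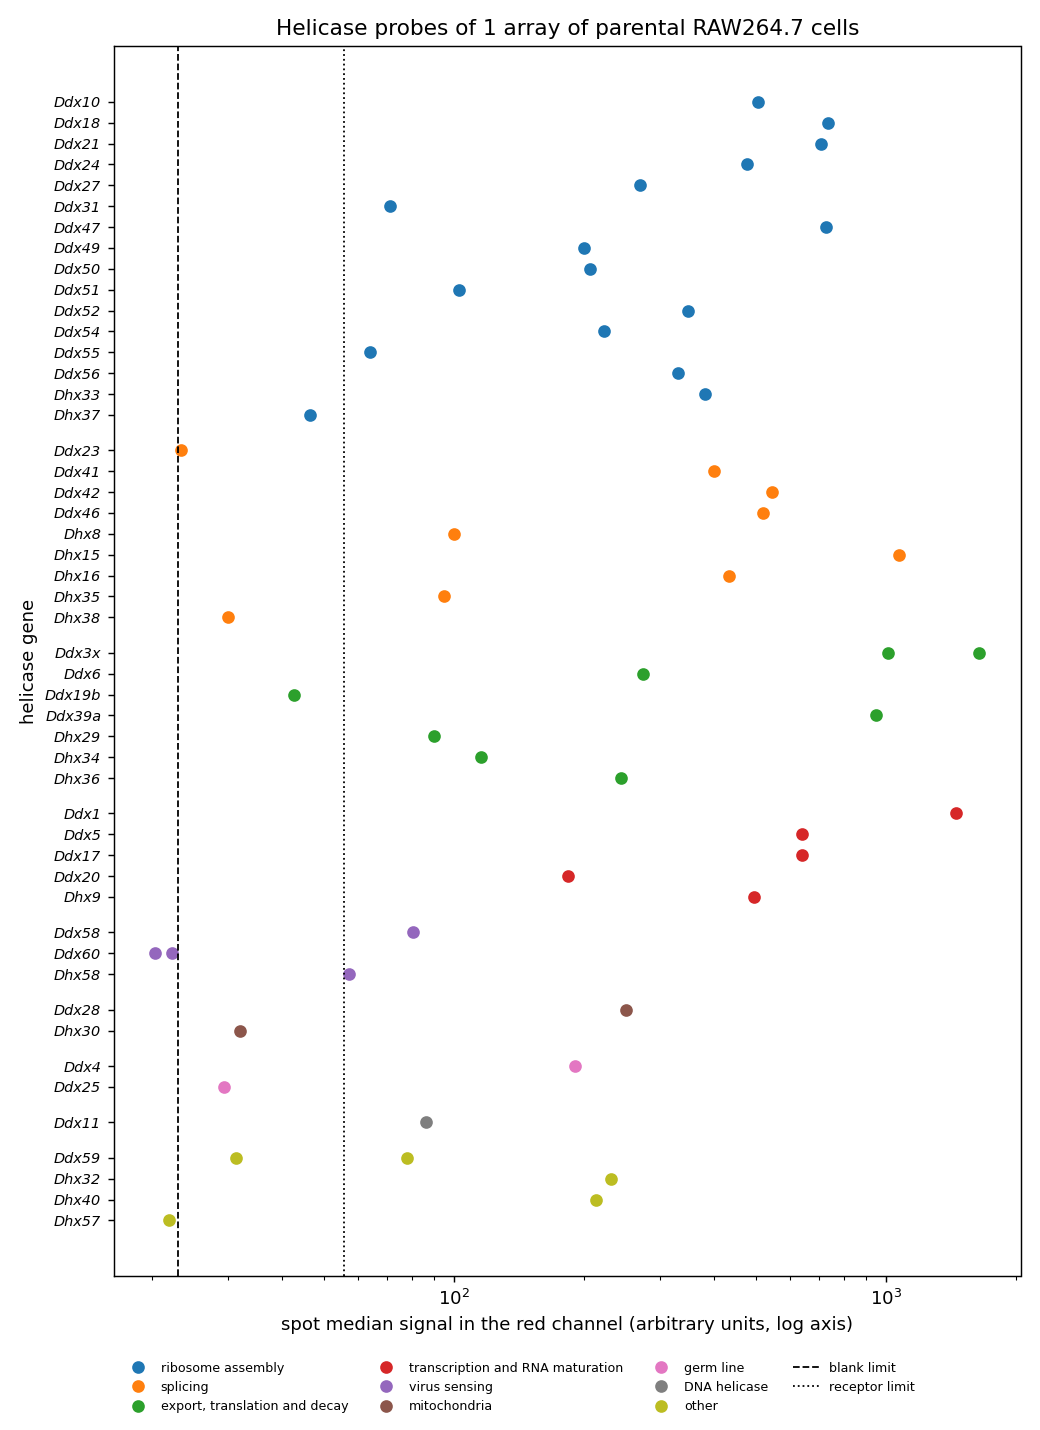
Signal of each of the 52 helicase probes on a log axis, with genes down the page grouped and coloured by role, the blank limit dashed and the receptor limit dotted; 2 points in a line are 2 probes of a gene. The probes of Ddx60 and Dhx57 lie left of the dashed line, and Ddx19b, Ddx23, Ddx25, Dhx30, Dhx37 and Dhx38 lie between the lines.

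Proteins of kinds that switch on RNA helicases, members or related ones, mostly passed the limits, beside 72.8% and 42.7% of all named genes. G-patch proteins, which switch on DEAH-box enzymes, had 19 measured members, all over the blank limit and 15 over the receptor limit. Of 10 listed proteins with an MIF4G fold, some of which do so for DEAD-box enzymes, Eif4g1 and Cnot1 were not measured. All 8 measured were over the blank limit and 7 over the receptor limit. Among them Gle1, the partner of the Ddx19 pair at the nuclear pore, read 304 where Ddx19b itself read 42.6. These are readings of different probes, and say nothing of the ratio of the transcripts.

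For complexes that hold or work with a helicase, every listed gene was measured. The lists leave out the helicases themselves and need not cover a complex in full. Their counts stand beside 72.8% of all named genes over the blank limit and 42.7% over the receptor limit. All 10 listed genes of TREX, the export complex served by the Ddx39 pair, passed the receptor limit, though Zc3h11a read 985 over a local background of 937. All 5 listed genes of the tRNA ligase complex passed the receptor limit too. Its catalytic subunit Rtcb read 1602 over a local background of 465, beside Ddx1 at 1454 over 59.7. Rtraf read 3422 over 1679 and Fam98b read 229 over 170, while Fam98a read 620 over 64.9 and Zbtb8os read 468 over 97.3. Of 8 SMN complex genes, partners of Ddx20, 7 passed the receptor limit and Gemin8 lay between the limits at 26.5. Of 10 decapping genes, partners of Ddx6, 9 lay over the blank limit and 8 over the receptor limit. Dcp1a was not over the blank limit at 22.1, and Lsm14a read 631 over a local background of 570. Of the Microprocessor pair, partners of Ddx5 and Ddx17, Drosha read 215 and Dgcr8 lay between the limits at 32.1.

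Related helicases that carry other names had 18 measured members of 21 listed. All 18 lay over the blank limit and 13, or 72.2%, over the receptor limit, against 72.8% and 42.7% of all named genes. Their median was 78.1, against 40.1 over all named genes. Eif4a1, the DEAD-box subunit of the cap-binding complex, read 11322, Eif4a3 of the exon junction complex read 3441, and the spliceosomal Snrnp200 read 769. Local background was high for Eif4a1, at 8052, and for Snrnp200, at 625, and was 45.6 for Eif4a3. Supv3l1 passed the receptor limit on 1 probe, at 283 over a local background of 277, while its other probe read 26.0. Upf1, the helicase of nonsense-mediated decay, read 56.1, just over the receptor limit. Aqr, Ascc3, Helz2, Ifih1 and Mov10 lay between the limits.

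**Figure D3:**
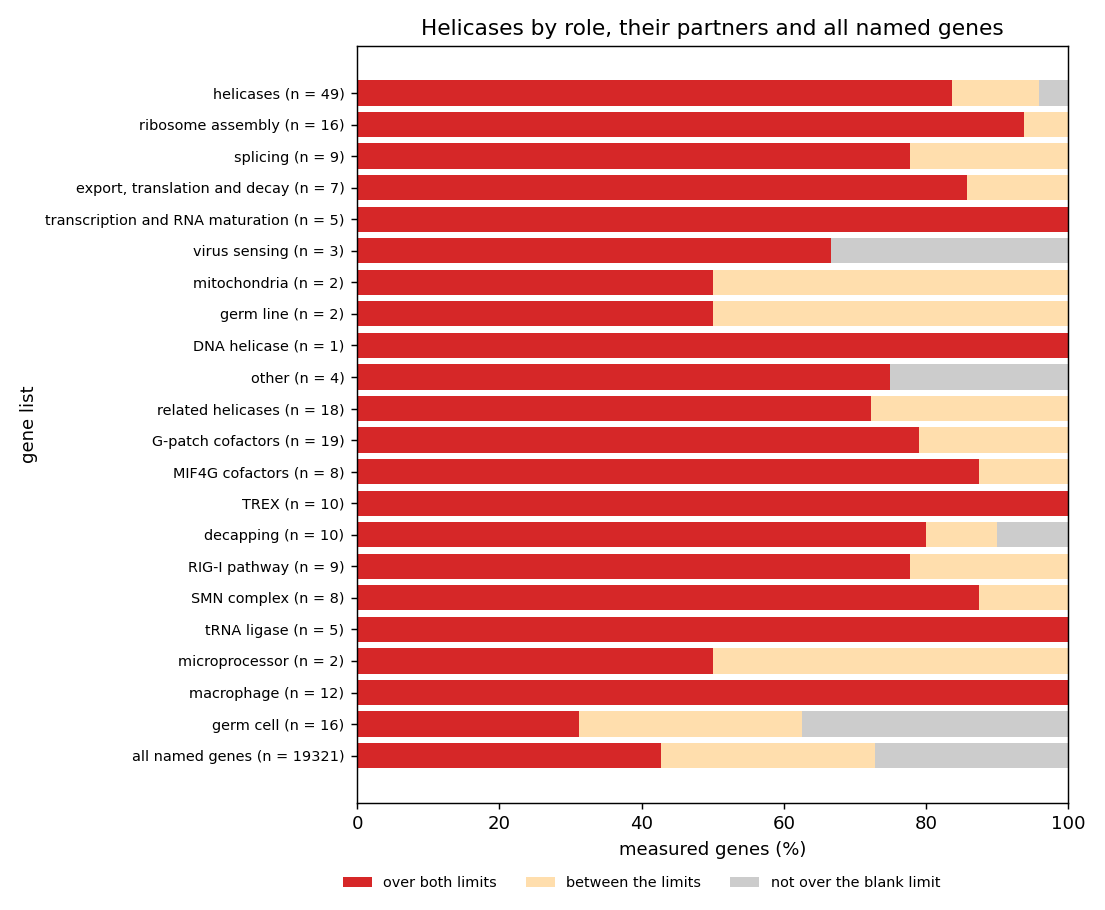
Percentage of measured genes over both limits (red), between them (pale) and not over the blank limit (grey), for all helicases, for each of their roles, for lists of partners and markers and for all named genes, with the number of genes beside each name. All 5 helicases of transcription and RNA maturation are red, the virus sensing group has 1 of 3 genes in grey, and 42.7% of all named genes are red.

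The authors' deposited table of processed intensity, a rescaled form of the same readings, gave the same calls for the helicases. It held values for 49 of the 52 helicase probes, from 1 for Ddx23 to 790 for Ddx3x, with a median of 102. The 3 empty cells were those of Dhx57 and of both Ddx60 probes.

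Local background differed widely around the helicase spots, from 19.3 to 525, with a median of 55.9, against 23.4 over all gene probes and 17.1 around the blanks. At 47 of the 52 helicase spots, or 90.4%, the local background by itself exceeded 22.98, the blank limit, as it did at 51.5% of all gene probes. After local background was subtracted from helicases, other genes and blanks alike, 89.8% of helicase genes lay over the blank limit and 73.5% over the receptor limit, against 63.2% and 41.3% of all named genes. The spot of a helicase was between 1.04 and 24.4 times its own local background, with a median of 2.77, against 1.43 over all gene probes. Ddx18 read 734 over a local background of 525, a ratio of 1.40. For Ddx1 the local background was 59.7, a ratio of 24.4, and for Ddx46 it was 30.2, a ratio of 17.2. In all, 15 helicase probes were under 1.5 times their local background. They include Ddx11, Ddx18, Ddx28, Ddx55, Dhx8 and Dhx29, which all read over both limits without subtraction.

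**Figure D4:**
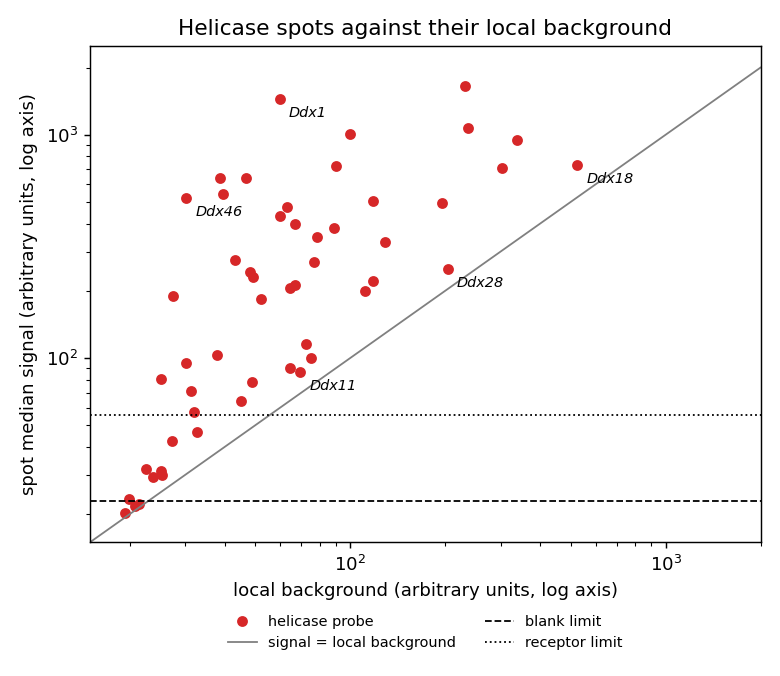
Spot median signal (vertical log axis) against local background (horizontal log axis) for the 52 helicase probes, with a grey line where they are equal. Ddx18, Ddx28 and Ddx11 lie close to the line, while Ddx1 and Ddx46 lie far over it.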

How the data were processed

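RNA of 1 sample of parental RAW264.7 cells was amplified, coupled to Cy5 and read on a Toray array, per the labels' protocols. The deposited scanner file holds the median intensity of each spot and of its local background in the red channel, without subtraction, from a scan at 3 gains, per the file headers. The method that combined the gains is not stated in these sources. Of 27456 spots, 0 carried a flag other than OK. A second deposited table holds the authors' processed intensity, whose scale, centring and handling of low values no label states. Over 2663 named probes with values over 200 it equalled the spot median minus the mean of the blanks, times 0.486 (SD 0.000371), so it is linear and has no direction. Its median is 25, for an unknown reason.

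Limits were computed from 2464 of 2736 blanks (mean 20.6, SD 1.18) and from 1221 receptor probes. Symbols come from the platform annotation, and all 49 helicase genes matched the RefSeq table of GRCm38.p6, which gave names and start-site windows. Of 52 helicase probes, 50 have an accession and each matches its gene. The members, roles, partner lists and alternatives were chosen with earlier results of these data known. The text names every helicase, and other genes were picked after their values were seen. The blank limit calculation was run on simulated spots whose raised genes lay far over that limit. That run does not bear on genes near the limit or on the receptor limit. Python 3.11.15, pandas 2.3.3 and scipy 1.17.1 were used, with limma 3.58.1 for normexp with an offset of 50. With 1 array, precision is limited by the number of arrays, and no test was made.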

Additional observations from a re-analysis of the deposited data

How the results depend on the processing

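There is 1 array, so no replicate could be left out. No paired analysis was possible because there is 1 sample and no second group. The share of helicase genes over the blank limit rose to 100% with 1 SD in place of 2 and with the limit from the negative controls, where 77.2% and 80.3% of all named genes passed, by the construction of lower limits. In the other settings it lay between 89.8% and 95.9%, against 63.2% to 73.9% of all named genes. The share over the receptor limit was 61.2% with the 99th percentile of the receptor probes, where 27.5% of all named genes passed, by the construction of a higher limit. The 11 genes lost there were Ddx11, Ddx31, Ddx51, Ddx55, Ddx58, Ddx59, Dhx8, Dhx29, Dhx34, Dhx35 and Dhx58. It was 87.8% with the 90th percentile, against 49.6% of all named genes, and 73.5% with normexp or with local background subtracted, where 41.3% of all named genes passed. Settings that changed the blank limit alone leave the receptor limit untouched, so their 83.7% was fixed in advance. Of the other settings, taking the lowest probe or the mean of the probes gave 81.6%. Signals set against the limits of their blocks gave 83.7%, as did the authors' table, a rescaled form of the same readings. Subtraction took Ddx11, Ddx55, Dhx8, Dhx29 and Dhx58 under the receptor limit and Ddx23, Ddx25 and Dhx38 under the blank limit. Across settings, 5 of 49 helicase genes changed side of the blank limit, namely Ddx23, Ddx25, Ddx60, Dhx38 and Dhx57, while the other 44 did not. The median helicase signal was 208 with normexp, a value that includes its added offset of 50. Dhx40, the gene at that median, read 146 with local background subtracted and no offset.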

Other observations

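Among the related helicases under other symbols, the probes of Eif4a2, a paralog of Eif4a1, read 1828 and 1556. The antiviral Mov10 lay between the limits at 49.998. Dicer1, whose helicase domain is related to that of RIG-I, read 176 on 1 probe and 76.8 on its other probe. The testis-linked Tdrd9, a DEAH-box relative in the piRNA route, read 62.2, and Dqx1 read 73.8.

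The ratio of spot to local background varied by position on the array. Among gene probes over the receptor limit, the median ratio in the 24 blocks ran from 1.64 to 4.95. The block of Ddx28 had the lowest median, 1.64, and Ddx28 itself stood at 1.23. The block of Ddx18 and Dhx8 had a median of 1.73, and they stood at 1.40 and 1.33. Ddx46, at 17.2, lay in the block with a median of 4.95. The part of block position in the calls of single helicases was not tested beyond the block limits, under which no helicase gene changed side of the blank limit.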
